A study of Mus musculus with 64 samples.

Results

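The genes described here are those of the machinery that releases transmitter from synaptic vesicles. They were chosen by symbol among protein-coding genes: the synaptotagmins (Syt), syntaxins (Stx), syntaxin-binding proteins (Stxbp), VAMPs (Vamp), complexins (Cplx), SV2 proteins, synapsins (Syn), Rab3 GTPases, RIM proteins (Rims) and Munc13 proteins (Unc13). The rule found 68 genes of the 32227 in the count table, and 64 of them were among the 17382 genes with enough counts to be tested. The 4 others, Cplx4, Stx19, Syt8 and Vamp9, had between 13 and 199 counts in all libraries together. The rule uses symbols and no measured value, but it was set with earlier results of these data known.

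RNA from hippocampus was sequenced in 64 libraries, from females and males of 8 inbred mouse strains, with 4 libraries for each strain and sex. The strains were A/J, C57BL/6J, 129S1/SvImJ, NOD/ShiLtJ, NZO/HlLtJ, CAST/EiJ, PWK/PhJ and WSB/EiJ, written with a slash where some labels use another character. These 8 founded the Collaborative Cross, a panel of recombinant inbred mice, and CAST/EiJ, PWK/PhJ and WSB/EiJ are wild-derived. No treatment or engineered allele is given in the labels, age was not given in the sources used here, and nothing states that each library came from a separate animal, so p-values measure the spread between these libraries.

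Release runs through a fixed chain of proteins. Synapsins hold vesicles in reserve, Rab3 and RIM bring them to the active zone, and Munc13 helps syntaxin to open and enter a SNARE complex with SNAP-25 and VAMP2. Complexins hold the assembled complex ready, and synaptotagmins sense calcium and trigger fusion. Many of these families also hold members that work in endosomes, the Golgi apparatus or granules of non-neuronal cells.

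Levels are given in CPM, read counts scaled to a common library size after normalization by the trimmed mean of M-values (TMM), and differences are on the log2 scale of the edgeR fit. A gene is called different among strains where the quasi-likelihood F test over the 8 strains gave an adjusted p below 0.05 and the fitted strain means spanned at least 1 on the log2 scale. Total counts per library were 16607602 to 27759221 (median 22176356.5), and the release genes took 1.30% to 1.55% of them.

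All 6 markers of CA1 pyramidal neurons and all 6 of dentate granule neurons were detected, with sums of 405 to 1063 CPM and of 282 to 524 CPM. CA1 sums were 779 to 1063 CPM in CAST/EiJ, and the highest library of any other strain was at 763 CPM, in NOD/ShiLtJ. Of the 6 CA1 markers, 2 were called higher in CAST/EiJ against the other strains and 0 lower. The median log2 difference of the list was 0.268 in CAST/EiJ and 0.276 in PWK/PhJ, where 0 were called in either direction. The CAST/EiJ separation is thus one of the sum, and its part in the release genes was not tested. The sum of the 10 choroid plexus markers varied more, over 21.6 to 4918 CPM, with none at 0. Their part in the strain differences was tested only by a covariate, under which the release genes called stayed at 8. A group of 4 libraries stood apart from the others of their strain and sex: 129S1/SvImJ female 1, A/J male 2, WSB/EiJ female 1 and C57BL/6J male 4, with a median absolute log2 deviation over genes of 0.30, 0.29, 0.24 and 0.20, against a median of 0.11 over all libraries and 0.19 in the fifth. Without these 4 libraries the 8 calls among strains below were all made again. In CAST/EiJ, sex goes with a separate block of sample numbers, and the 2 cannot be told apart.

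The promoters below belong to the 3 release genes that were at least 1 lower on the log2 scale in a strain against the other 7 (Cplx3, Stxbp2 and Stxbp4), and, for contrast, to Syn1, a gene that did not pass the test among strains. Each is the reference (C57BL/6J) sequence from RefSeq, build GRCm38.p6, 250 bases before to 50 after the start, printed 5′ to 3′ on the gene's strand. They hold no information on the other strains. Capitals mark the letters CACGTG (an E-box), GGGCGG or its reverse complement (a GC box), TGACGTCA (a cyclic AMP response element) and TTCAGCACC or its reverse complement (the left part of the RE1 element). The Cplx3 promoter lies at chr9:57606232-57606531 on the minus strand, that of Stxbp2 at chr8:3630859-3631158 on the plus strand, that of Stxbp4 at chr11:90638059-90638358 on the minus strand and that of Syn1 at chrX:20920869-20921168 on the minus strand.
Cplx3: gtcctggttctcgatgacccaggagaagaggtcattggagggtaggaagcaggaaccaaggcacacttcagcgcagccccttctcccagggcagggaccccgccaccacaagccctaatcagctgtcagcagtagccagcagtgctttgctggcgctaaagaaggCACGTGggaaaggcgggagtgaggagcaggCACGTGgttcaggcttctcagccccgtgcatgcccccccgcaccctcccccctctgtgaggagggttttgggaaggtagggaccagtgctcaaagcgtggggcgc
Stxbp2: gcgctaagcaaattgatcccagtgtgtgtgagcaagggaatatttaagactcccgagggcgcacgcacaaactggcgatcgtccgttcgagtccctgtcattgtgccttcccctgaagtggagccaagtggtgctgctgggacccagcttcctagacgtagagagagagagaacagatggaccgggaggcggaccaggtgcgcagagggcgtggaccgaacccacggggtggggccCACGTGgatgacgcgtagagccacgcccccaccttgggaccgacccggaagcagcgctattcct
Stxbp4: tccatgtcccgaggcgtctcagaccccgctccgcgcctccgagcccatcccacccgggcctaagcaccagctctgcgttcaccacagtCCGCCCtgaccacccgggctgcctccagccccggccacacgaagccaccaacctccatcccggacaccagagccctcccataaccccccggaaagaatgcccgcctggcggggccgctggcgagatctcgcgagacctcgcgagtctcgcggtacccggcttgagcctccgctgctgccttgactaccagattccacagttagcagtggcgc
Syn1: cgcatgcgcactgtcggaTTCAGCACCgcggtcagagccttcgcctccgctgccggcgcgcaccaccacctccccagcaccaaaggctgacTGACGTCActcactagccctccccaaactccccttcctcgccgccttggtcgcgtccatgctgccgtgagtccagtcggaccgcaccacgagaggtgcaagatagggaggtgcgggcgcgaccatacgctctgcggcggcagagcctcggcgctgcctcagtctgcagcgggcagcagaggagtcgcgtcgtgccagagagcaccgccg

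The E-box letters occurred 2 times in the Cplx3 window and 1 time in the Stxbp2 window, and the Stxbp4 window held 1 GC box. Syn1 held 1 cyclic AMP response element and 1 left part of RE1. Of the 64 release genes tested, 50 had a promoter in the table, and 42 of these (84%) held GGGCGG on either strand, against 35.7% of all 32851 promoters. CACGTG was in 8 of 50 (16%), against 7.15% of all. TGACGTCA was in 2 (4%, Stxbp3 and Syn1), against 1.79%, and TTCAGCACC on either strand in 2 (4%, Syn1 and Unc13a), against 0.371%. A release gene was counted where any of its promoters held the letters, but the shares of all are of single promoters. The 2 kinds of share are therefore not alike. These are matches of letters, and no test was made of them.

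Per kilobase of exon, taken over all annotated exons of a gene, the core fusion genes stood at the top. Such levels also depend on which exons are annotated, so comparison between genes is rough. Cplx2 had 368 CPM per kb, Vamp2 293, Cplx1 290.2, Rab3a 232, Syt1 198, Syn1 193 and Syt11 174. Vamp2, the VAMP of synaptic vesicles, made up 87.1% to 88.8% of the per-kilobase level of the VAMPs over the strain means, and Unc13a, the main Munc13 of forebrain neurons, 80.9% to 87.0% of the Munc13 genes. Low in the order were Vamp5, a VAMP known from muscle, at 0.556 CPM per kb, Syn3 at 0.640, Unc13d at 0.518, Syt15 at 0.227 and Stx11 at 0.0533.

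**Figure D1:**
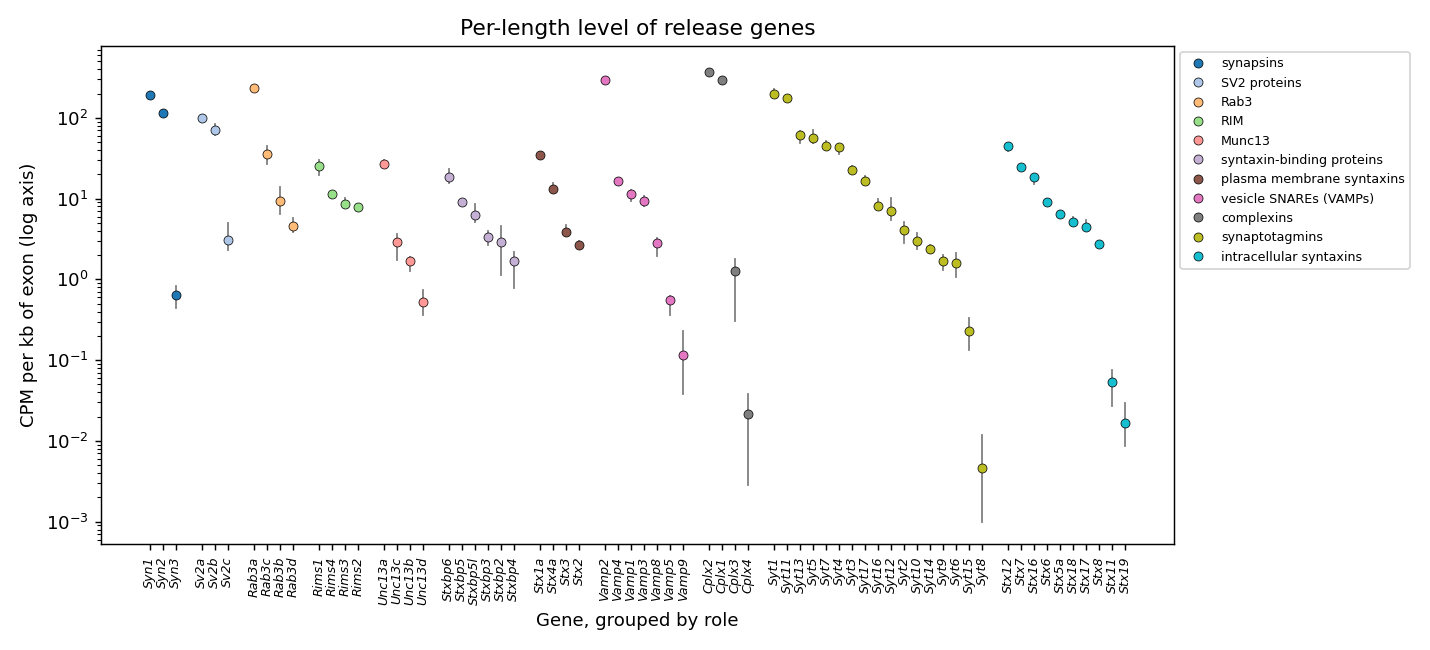
Level of the release genes in CPM per kb of exon, on a log axis, grouped and coloured by role. Points are means over 64 libraries and bars span the lowest to the highest of the 8 strain means. Cplx2 (368), Vamp2 (293) and Cplx1 (290) are the highest points.

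With no fold minimum, 59 of 64 release genes (92.2%) passed the F test among strains, against 89.2% of all genes tested. With a range of at least 1, 8 of 64 (12.5%) were called, against 27.6% of all genes: Cplx3, Stxbp2, Stxbp4, Syt15, Sv2c, Rab3b, Unc13c and Unc13d. In a bulk tissue, fewer cells of a type and less RNA per cell cannot be told apart.

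The release genes were also more abundant than most genes, and ranges were narrower at high levels. The median range over strains was 0.42 for the release genes and 0.55 for all genes tested, and the median of the mean levels was 69.6 CPM, against 15.6 CPM. At a mean of 100 CPM or more, the median range was 0.26 for 23 release genes and 0.28 for 2276 genes in all. Between 10 and 100 CPM it was 0.44 for 31 release genes and 0.38 for 7740 genes, and below 10 CPM it was 0.96 for 10 release genes and 1.21 for 7366 genes. A range of at least 1 was reached by 0 of 23, 5 of 31 and 4 of 10 release genes in these bands, and by 53, 565 and 4395 of all genes in them. When only genes with a mean of at least 50 counts were tested, 7 of 61 release genes (11.5%) and 13% of all genes were called. Of the variance of log2 CPM, strain held a median of 52.4% in the release genes and 51.1% over all genes.

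**Figure D2:**
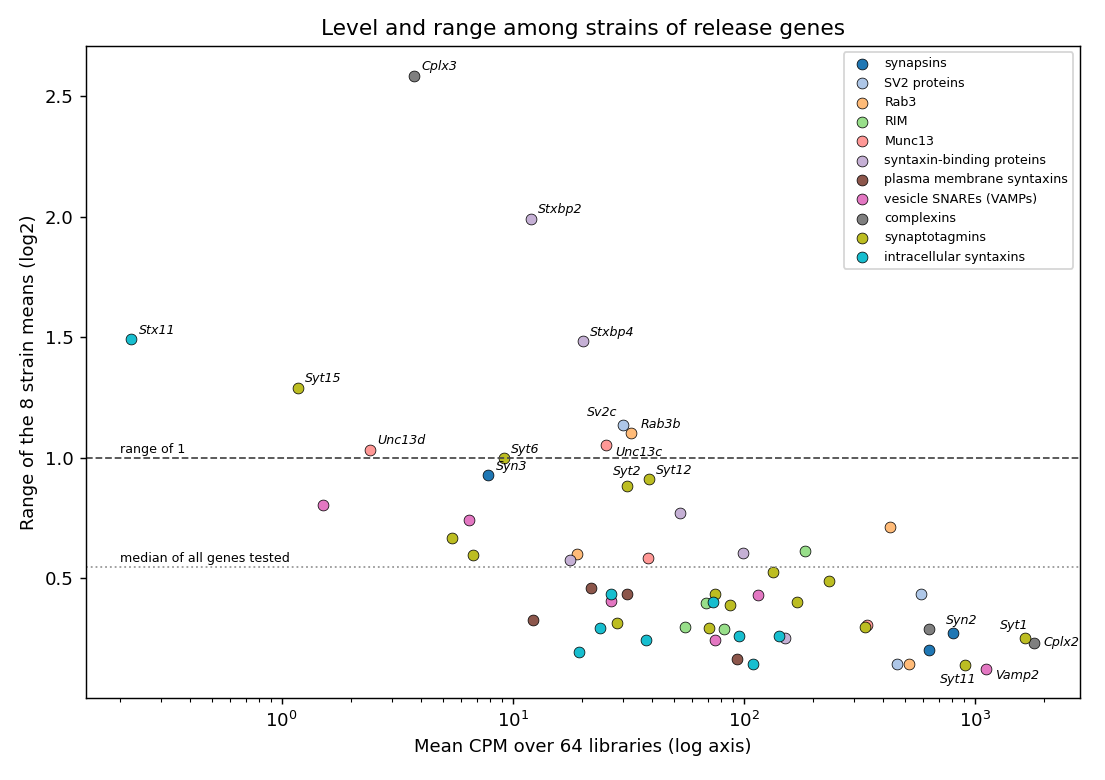
Range of the 8 fitted strain means (log2, vertical axis) against the mean level over 64 libraries (CPM, log axis) for the release genes tested, coloured by role. The dashed line marks a range of 1 and the dotted line the median range of all genes tested (0.55); no release gene above 100 CPM reaches a range of 1, and Cplx3 (2.59) is the highest point.

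Cplx2, which with Cplx1 sets the readiness of the SNARE complex in forebrain neurons, had mean levels (CPM) of 2008 ± 128 in PWK/PhJ, 1900 ± 113 in NOD/ShiLtJ, 1848 ± 161 in A/J, 1783 ± 84.5 in CAST/EiJ, 1771 ± 114 in 129S1/SvImJ, 1767 ± 77.6 in WSB/EiJ, 1728 ± 78.3 in NZO/HlLtJ and 1708 ± 91.8 in C57BL/6J (SD, n = 8 each). The PWK/PhJ level was 0.17 ± 0.0338 (SE) from the other 7 on the log2 scale (edgeR quasi-likelihood test, adjusted p = 2.15e-05), and the strains' values overlapped. No neighbours in this order passed the test of their difference (adjusted p above 0.05 for each).

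Vamp2 had mean levels (CPM) of 1176 ± 74.4 in PWK/PhJ, 1159 ± 87.9 in 129S1/SvImJ, 1116 ± 55.9 in CAST/EiJ, 1107 ± 41.4 in NZO/HlLtJ, 1102 ± 47.95 in WSB/EiJ, 1100 ± 56.7 in A/J, 1079 ± 87.2 in NOD/ShiLtJ and 1078 ± 93.5 in C57BL/6J. Its F test over strains did not pass (adjusted p = 0.0672, edgeR), with a range of 0.13, the smallest among the 64 release genes. Stx1a, a syntaxin of the plasma membrane, had a range of 0.16 and did not pass (adjusted p = 0.351).

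Unc13a had mean levels (CPM) of 384 ± 35.9 in PWK/PhJ, 359 ± 28.1 in NOD/ShiLtJ, 344 ± 21.1 in CAST/EiJ, 343 ± 38.04 in C57BL/6J, 338 ± 42.2 in A/J, 329 ± 46.01 in 129S1/SvImJ, 328 ± 35.4 in WSB/EiJ and 310.4 ± 26.6 in NZO/HlLtJ, with a range of 0.31 (adjusted p = 0.0161) and no neighbours that passed.

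Syt1, the calcium sensor of fast release, had mean levels (CPM) of 1883 ± 118 in PWK/PhJ, 1708 ± 99.6 in NOD/ShiLtJ, 1625 ± 64.1 in NZO/HlLtJ, 1609 ± 196 in 129S1/SvImJ, 1603 ± 161 in A/J, 1589 ± 116 in CAST/EiJ, 1587 ± 74.5 in C57BL/6J and 1581 ± 125 in WSB/EiJ. PWK/PhJ was highest and differed from NOD/ShiLtJ, the next (adjusted p = 0.0373), and no other neighbours passed. Syt11, a synaptotagmin that does not bind calcium, had mean levels (CPM) of 952 ± 21.7 in A/J, 927 ± 25.4 in WSB/EiJ, 920.2 ± 39.7 in C57BL/6J, 915.1 ± 24.5 in 129S1/SvImJ, 904 ± 37.9 in NOD/ShiLtJ, 903 ± 21.7 in PWK/PhJ, 882 ± 20.3 in NZO/HlLtJ and 863 ± 25.4 in CAST/EiJ and had a range of 0.14. Syt7, a slower and more sensitive calcium sensor, had mean levels (CPM) of 384 ± 32.4 in NOD/ShiLtJ, 354 ± 30.3 in WSB/EiJ, 348 ± 36.1 in A/J, 326 ± 27.5 in CAST/EiJ, 326 ± 26.05 in C57BL/6J, 319.6 ± 16.9 in PWK/PhJ, 317 ± 25.9 in NZO/HlLtJ and 312 ± 43.7 in 129S1/SvImJ. NOD/ShiLtJ was highest in Syt7 (0.22 ± 0.0496 from the other 7, adjusted p = 0.000213), with overlap.

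Among genes of the vesicle and its approach to the active zone, Syn2 had mean levels (CPM) of 886 ± 66.02 in PWK/PhJ, 847 ± 53.3 in NOD/ShiLtJ, 824 ± 26.2 in C57BL/6J, 809 ± 57.4 in 129S1/SvImJ, 799 ± 42.3 in A/J, 778 ± 27.1 in NZO/HlLtJ, 763 ± 51.2 in CAST/EiJ and 734 ± 20.5 in WSB/EiJ, and no neighbours in this order passed. Syn1 had a range of 0.20 and did not pass the F test (adjusted p = 0.103). Sv2b, a glycoprotein of the vesicle membrane, had mean levels (CPM) of 695 ± 50.96 in PWK/PhJ, 662 ± 46.2 in CAST/EiJ, 599 ± 32.3 in NOD/ShiLtJ, 587 ± 38.7 in C57BL/6J, 553 ± 27.6 in NZO/HlLtJ, 538 ± 48.3 in 129S1/SvImJ, 536 ± 46.2 in A/J and 514 ± 34.5 in WSB/EiJ. PWK/PhJ and CAST/EiJ were the highest, and CAST/EiJ differed from NOD/ShiLtJ, the next below (adjusted p = 0.0203). Rab3a, the main Rab3 of brain synapses, had mean levels (CPM) of 548 ± 42.8 in WSB/EiJ, 538 ± 31.6 in PWK/PhJ, 534 ± 45.7 in 129S1/SvImJ, 512 ± 51.6 in A/J, 505 ± 27.7 in NOD/ShiLtJ, 503 ± 43.3 in C57BL/6J, 501 ± 18.99 in CAST/EiJ and 496 ± 18.4 in NZO/HlLtJ with a range of 0.14 and no neighbours that passed. Rims1, the RIM scaffold that ties Rab3, Munc13 and calcium channels together, had mean levels (CPM) of 221 ± 24.2 in A/J, 198 ± 10.2 in NZO/HlLtJ, 191 ± 11.2 in NOD/ShiLtJ, 189.8 ± 12.7 in PWK/PhJ, 187 ± 14.5 in C57BL/6J, 181 ± 24.8 in 129S1/SvImJ, 169 ± 10.3 in CAST/EiJ and 144 ± 16.7 in WSB/EiJ. A/J was high (0.30 ± 0.0503 from the other 7, adjusted p = 2.1e-06) and WSB/EiJ low (-0.40 ± 0.0535, adjusted p = 9.98e-09), and WSB/EiJ also differed from CAST/EiJ, the next above (adjusted p = 0.00343).

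Stx12, a syntaxin of recycling endosomes, had mean levels (CPM) of 148 ± 7.33 in A/J, 146 ± 9.60 in 129S1/SvImJ, 146 ± 4.83 in NOD/ShiLtJ, 145 ± 5.90 in C57BL/6J, 144 ± 6.38 in PWK/PhJ, 142 ± 6.10 in NZO/HlLtJ, 139 ± 5.81 in WSB/EiJ and 124 ± 2.74 in CAST/EiJ. Its 8 CAST/EiJ libraries, at 119 to 126 CPM, lay below all 56 others, at 129 to 166 CPM. The difference was small, -0.22 ± 0.0252 on the log2 scale (adjusted p = 4.98e-11, edgeR). Syt13, another synaptotagmin without calcium binding, showed such a gap too, with 165 to 203 CPM in CAST/EiJ and 212 to 275 CPM in the 56 others (-0.39 ± 0.0256, adjusted p = 5.38e-20). These were the only 2 of 64 release genes (3.12%) with all 8 CAST/EiJ libraries below the others, against 1.62% of all genes tested. None had all 8 CAST/EiJ libraries above the others (2.15% of all genes did), and none had all 8 PWK/PhJ libraries above or below the others (2.09% and 1.65%).

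**Figure D3:**
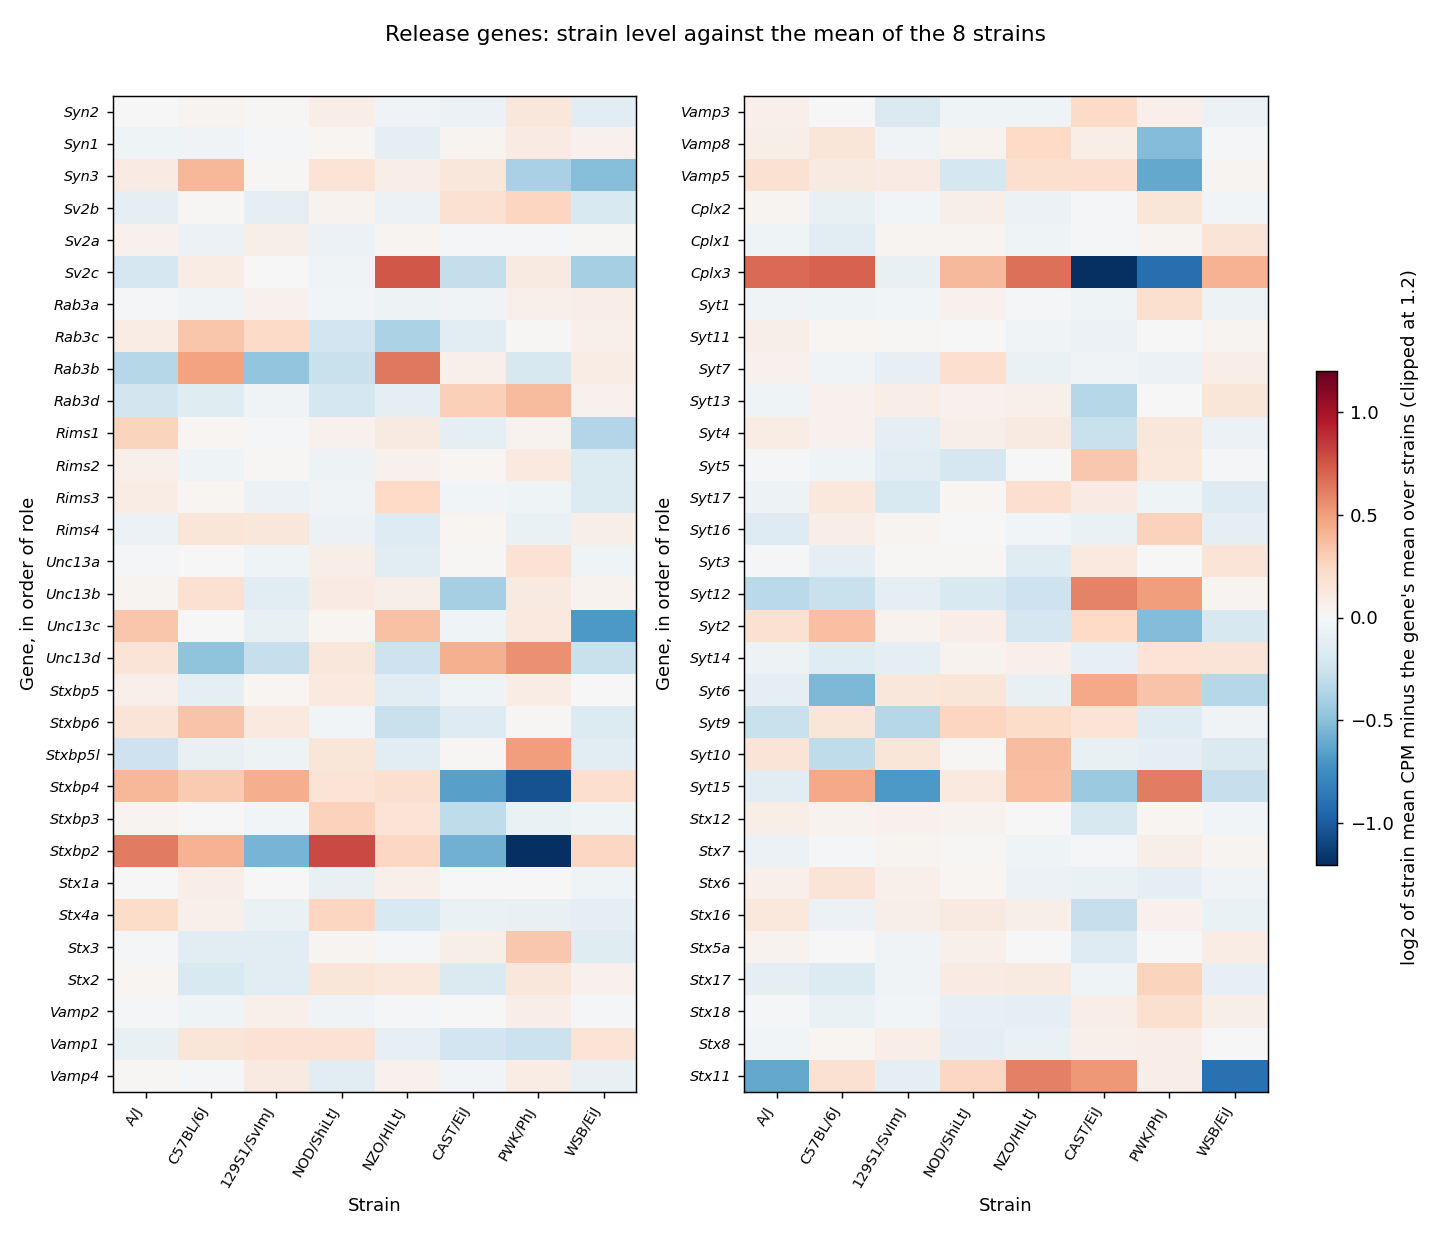
Strain mean of the release genes tested, as log2 of the strain's mean CPM minus the gene's mean over the 8 strains (colour, clipped at 1.2), in order of role. Most rows are pale; Cplx3, Stxbp2 and Stxbp4 are blue in CAST/EiJ and PWK/PhJ, and Sv2c and Rab3b are red in NZO/HlLtJ.

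The 8 called genes were isoforms at low to middling levels, between 1.17 and 32.7 CPM on average. Cplx3, a complexin anchored to membranes by a lipid group and best known from retinal ribbon synapses, had the widest range (2.59, adjusted p = 1.28e-11). Levels (lowest, median and highest) were 3.19, 5.35 and 8.13 CPM in C57BL/6J, 1.98, 4.60 and 10.1 CPM in A/J, 3.25, 5.09 and 6.84 CPM in NZO/HlLtJ, 2.98, 4.30 and 5.73 CPM in WSB/EiJ and 3.18, 3.92 and 6.10 CPM in NOD/ShiLtJ. They were 1.76, 2.74 and 4.52 CPM in 129S1/SvImJ, 1.10, 1.65 and 2.76 CPM in PWK/PhJ and 0.329, 0.811 and 1.84 CPM in CAST/EiJ. CAST/EiJ was lowest and differed from PWK/PhJ (adjusted p = 0.0101), which differed from 129S1/SvImJ (adjusted p = 0.0109). Among the 6 strains above PWK/PhJ no neighbours passed, and all 8 strains overlapped with at least the next in order.

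In CAST/EiJ, Cplx3 averaged 0.893 ± 0.480 CPM (SD, n = 8), against 4.15 ± 1.90 CPM in the other 7 strains (n = 56), a log2 difference of -2.13 ± 0.249 (SE, edgeR, adjusted p = 1.62e-10). The difference was -1.91 within females and -2.29 within males. Cplx3 was the only 1 of 64 release genes (1.56%) called lower in CAST/EiJ by at least 1, against 5.22% of all genes, and none was called higher there, against 4.02%.

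Stxbp2 (Munc18-2), which serves granule release in mast cells, cytotoxic lymphocytes and epithelia, had the next widest range (1.99, adjusted p = 6.07e-27). Lowest, median and highest levels were 15.9, 18.4 and 21.9 CPM in NOD/ShiLtJ, 13.4, 16.2 and 22.7 CPM in A/J, 12.6, 14.9 and 15.6 CPM in C57BL/6J, 10.7, 13.01 and 15.6 CPM in WSB/EiJ and 11.4, 12.7 and 15.5 CPM in NZO/HlLtJ. They were 6.18, 7.74 and 8.49 CPM in 129S1/SvImJ, 5.65, 7.41 and 8.74 CPM in CAST/EiJ and 3.32, 4.77 and 6.55 CPM in PWK/PhJ. The strains fell into levels: 129S1/SvImJ and CAST/EiJ were not separated (adjusted p = 0.849) and lay below NZO/HlLtJ (129S1/SvImJ against NZO/HlLtJ, adjusted p = 7.91e-10), and PWK/PhJ lay below CAST/EiJ (adjusted p = 1.05e-06). No library of 129S1/SvImJ, CAST/EiJ or PWK/PhJ reached the lowest library of the other 5 strains. Strain held 93.0% of the variance of its log2 CPM.

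Stxbp4 (Synip), a partner of syntaxin 4 known from insulin-regulated glucose transporter traffic, had a range of 1.48 (adjusted p = 7.2e-19). Across libraries the lowest, median and highest levels were 16.8, 26.2 and 29.3 CPM in 129S1/SvImJ, 15.6, 26.1 and 30.4 CPM in A/J, 19.6, 24.6 and 26.2 CPM in C57BL/6J, 15.6, 22.1 and 25.3 CPM in WSB/EiJ and 19.3, 21.5 and 24.8 CPM in NZO/HlLtJ. They were 12.7, 22.5 and 26.2 CPM in NOD/ShiLtJ, 9.81, 12.7 and 13.3 CPM in CAST/EiJ and 7.78, 8.99 and 11.1 CPM in PWK/PhJ. CAST/EiJ lay below NOD/ShiLtJ (adjusted p = 5.86e-09), with overlap through 1 low NOD/ShiLtJ library, and PWK/PhJ lay below CAST/EiJ (adjusted p = 0.00292). Among the 6 strains above no neighbours passed.

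PWK/PhJ was lower by at least 1 in 3 of 64 release genes (4.69%), against 5.60% of all genes, and higher in none, against 3.75%. Stxbp2 averaged 4.75 ± 0.890 CPM in PWK/PhJ (SD, n = 8), against 13.1 ± 4.43 CPM in the other 7 strains (n = 56), a log2 difference of -1.37 ± 0.0838 (SE, adjusted p = 4.03e-21, edgeR). Stxbp4 averaged 9.19 ± 1.12 CPM, against 21.6 ± 5.24 CPM (-1.198 ± 0.0918, adjusted p = 7.58e-17). Cplx3 averaged 1.73 ± 0.587 CPM, against 4.03 ± 2.07 CPM (-1.04 ± 0.223, adjusted p = 7.47e-05), and this call was lost when PWK/PhJ female 2, male 1 or male 3 was left out (-0.955, -0.99 and -0.97), and without the 4 libraries that stand apart, at -0.9995. In CAST/EiJ the differences of Stxbp2 and Stxbp4 were -0.66 and -0.74 (adjusted p = 7.43e-11 and 1.07e-10). Each such comparison includes the other strain among its 7, so the 2 share libraries. The summed level of the 8 oligodendrocyte markers, none at 0, was also low in both strains. It was 2690 to 3561 CPM (median 3274 CPM) in PWK/PhJ and 2803 to 3758 CPM (median 3221 CPM) in CAST/EiJ. Libraries of the other 6 strains overlapped with these, at 3221 to 6303 CPM, with medians of 3555 to 5195 CPM. None of the 8 oligodendrocyte markers was called lower in either strain, with a median log2 difference of the list of -0.37 in PWK/PhJ and -0.30 in CAST/EiJ. Not every list was low: the 8 astrocyte markers summed to a median of 5866 CPM in PWK/PhJ and 5707 CPM in CAST/EiJ. Their medians in the other 6 strains were 4420 to 5929 CPM. The part of these lists in these differences was not tested. The 10 choroid plexus markers were low in PWK/PhJ, at 21.6 to 1858 CPM with a median of 102 CPM, and 2 of them were called lower there (median log2 difference of the list -1.29). In CAST/EiJ they summed to 22.5 to 4858 CPM, with a median of 1812 CPM. Libraries of the other 6 strains ran from 30.1 to 4918 CPM, with medians of 74.4 to 1340 CPM. With that list as a covariate the 3 genes were again called lower in PWK/PhJ.

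**Figure D4:**
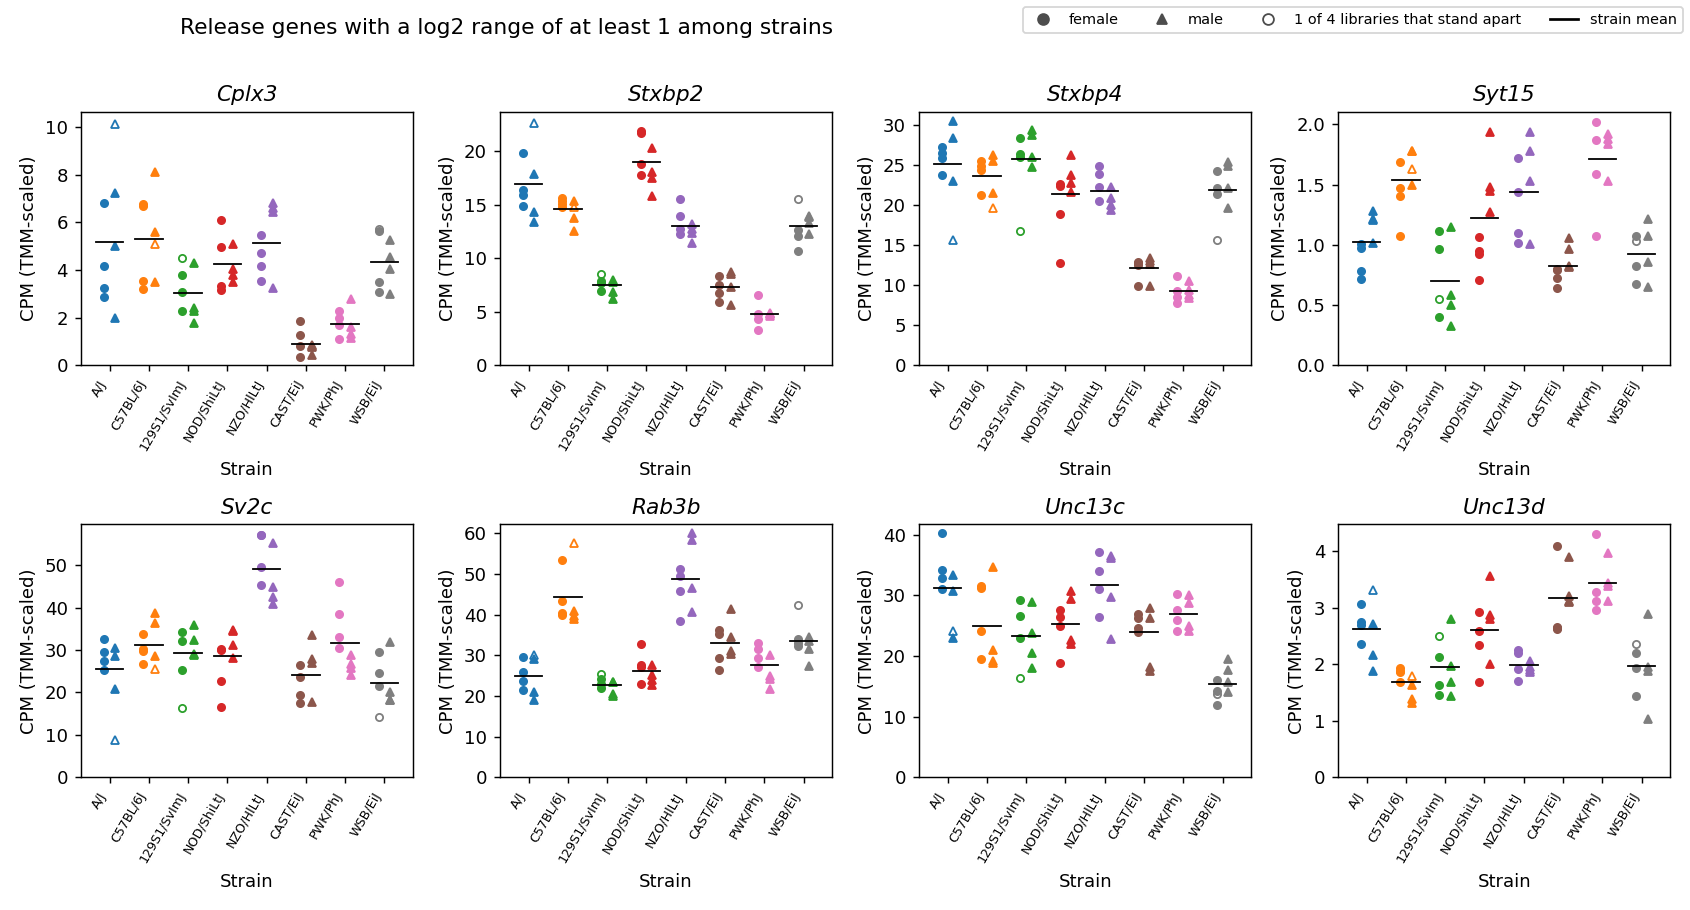
Level in every library (CPM) of the 8 release genes called among strains, by strain, with females as circles, males as triangles, the strain mean as a line and the 4 libraries that stand apart as open symbols. Cplx3, Stxbp2 and Stxbp4 are low in CAST/EiJ and PWK/PhJ, Sv2c and Rab3b are high in NZO/HlLtJ, and Unc13c is low in WSB/EiJ.

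Syt15, a synaptotagmin that does not bind calcium, was near the limit of detection, with a mean of 1.17 CPM, and had a range of 1.29 (adjusted p = 9.46e-10). Its lowest, median and highest levels were 1.07, 1.85 and 2.02 CPM in PWK/PhJ, 1.07, 1.56 and 1.78 CPM in C57BL/6J, 1.01, 1.48 and 1.94 CPM in NZO/HlLtJ, 0.706, 1.17 and 1.94 CPM in NOD/ShiLtJ and 0.719, 1.01 and 1.28 CPM in A/J. They were 0.650, 0.944 and 1.21 CPM in WSB/EiJ, 0.642, 0.805 and 1.05 CPM in CAST/EiJ and 0.327, 0.566 and 1.14 CPM in 129S1/SvImJ. The order had no break, since no neighbours passed, and the highest and lowest strains overlapped by 1 PWK/PhJ library.

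Sv2c, the SV2 protein best known from the basal ganglia, had a range of 1.14 (adjusted p = 1.68e-07). Over 8 libraries each, the lowest, median and highest levels were 40.7, 47.5 and 57.2 CPM in NZO/HlLtJ, 24.1, 29.6 and 45.95 CPM in PWK/PhJ, 25.5, 30.00 and 38.7 CPM in C57BL/6J, 16.2, 30.6 and 35.9 CPM in 129S1/SvImJ and 16.5, 30.1 and 34.7 CPM in NOD/ShiLtJ. They were 8.85, 27.99 and 32.6 CPM in A/J, 17.5, 24.99 and 33.5 CPM in CAST/EiJ and 14.1, 20.8 and 31.9 CPM in WSB/EiJ. NZO/HlLtJ alone stood above its neighbour, PWK/PhJ (adjusted p = 0.000573), and only 1 library of the other 7 strains reached its range. NZO/HlLtJ averaged 49.1 ± 6.68 CPM, against 27.5 ± 6.84 CPM in the other 7, a log2 difference of 0.85 ± 0.113 (adjusted p = 1.78e-08). With a thalamus and habenula score as a covariate, the range of Sv2c was 0.97, which ends the call.

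Rab3b, a Rab3 isoform known for plasticity at inhibitory terminals of the hippocampus, had a range of 1.10 (adjusted p = 1.24e-16). By strain, the lowest, median and highest levels were 38.5, 48.00 and 60.2 CPM in NZO/HlLtJ, 38.9, 40.6 and 57.6 CPM in C57BL/6J, 27.4, 33.3 and 42.3 CPM in WSB/EiJ, 26.4, 32.8 and 41.4 CPM in CAST/EiJ and 21.7, 28.3 and 33.1 CPM in PWK/PhJ. They were 22.6, 26.2 and 32.7 CPM in NOD/ShiLtJ, 19.05, 24.8 and 30.03 CPM in A/J and 20.1, 23.2 and 25.5 CPM in 129S1/SvImJ. NZO/HlLtJ and C57BL/6J formed the upper level (adjusted p between them = 0.281), C57BL/6J lay above WSB/EiJ (adjusted p = 0.000681) and CAST/EiJ above PWK/PhJ (adjusted p = 0.0222). All 8 libraries of NZO/HlLtJ and of C57BL/6J lay above all libraries of PWK/PhJ, NOD/ShiLtJ, A/J and 129S1/SvImJ. Of its exon bases, 9.0% overlap an antisense gene, 8030443G20Rik, and whether the counting used strand was not stated. Its share of the per-kilobase level of the Rab3 genes was 5.16% ± 0.670 in NZO/HlLtJ and 2.21% ± 0.102 in 129S1/SvImJ (SD, n = 8 each).

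Unc13c (Munc13-3), known above all from cerebellar granule cells, had a range of 1.05 (adjusted p = 1.84e-08). Per strain the lowest, median and highest levels were 22.8, 32.5 and 37.2 CPM in NZO/HlLtJ, 22.9, 31.96 and 40.3 CPM in A/J, 24.1, 26.8 and 30.2 CPM in PWK/PhJ, 18.9, 25.7 and 30.7 CPM in NOD/ShiLtJ and 18.9, 22.6 and 34.6 CPM in C57BL/6J. They were 17.6, 25.4 and 27.9 CPM in CAST/EiJ, 16.3, 23.3 and 29.3 CPM in 129S1/SvImJ and 11.96, 14.98 and 19.5 CPM in WSB/EiJ. WSB/EiJ was the only strain that differed from its neighbour, 129S1/SvImJ (adjusted p = 0.00021). It averaged 15.4 ± 2.41 CPM, against 26.8 ± 5.53 CPM in the other 7 strains, a log2 difference of -0.80 ± 0.105 (adjusted p = 9.63e-09).

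Unc13d (Munc13-4), a priming protein of granules in lymphocytes and platelets, had a range of 1.03 (adjusted p = 2.7e-09). From high to low by strain mean, the lowest, median and highest levels were 2.95, 3.32 and 4.31 CPM in PWK/PhJ, 2.63, 3.10 and 4.09 CPM in CAST/EiJ, 1.89, 2.70 and 3.31 CPM in A/J, 1.68, 2.69 and 3.57 CPM in NOD/ShiLtJ and 1.70, 1.94 and 2.26 CPM in NZO/HlLtJ. They were 1.03, 1.95 and 2.89 CPM in WSB/EiJ, 1.43, 1.83 and 2.80 CPM in 129S1/SvImJ and 1.32, 1.74 and 1.93 CPM in C57BL/6J. PWK/PhJ and CAST/EiJ were highest, and all of their libraries lay above all of C57BL/6J, the lowest strain. The break in the order was between NOD/ShiLtJ and NZO/HlLtJ (adjusted p = 0.0462). The range fell below 1 when PWK/PhJ female 2 or male 2 was left out (to 0.960 and 0.997), which ends the call.

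Just under a range of 1 were Syt6 (0.998, CAST/EiJ highest and C57BL/6J lowest), Syn3 (0.93), Syt12 (0.91) and Syt2 (0.88). Syt6 crossed the limit when any 1 of 20 libraries was left out, and Syn3 when C57BL/6J male 4 or WSB/EiJ male 2 was. The range of Syt6 in those 20 runs was 1.00004 to 1.05. The smallest crossings came without libraries of strains at neither end of its range, such as A/J female 1. Stx11, a syntaxin of lymphocyte granules, had a range of 1.49 from 321 counts in all, and missed the test (adjusted p = 0.0518); it passed when any 1 of 22 libraries was left out. Syt12 averaged 56.8 ± 9.31 CPM in CAST/EiJ and 53.2 ± 2.34 CPM in PWK/PhJ, with means of 30.1 to 38.6 CPM in the other 6 strains. No library of CAST/EiJ or PWK/PhJ was as low as the highest of the other 6. An uncertain point is that 17.15% of its exon bases overlap a transcript on the opposite strand, A930001C03Rik, and 14.11% of those of Syn3 overlap Timp3.

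Against the other 7 strains, no release gene was called with a difference of at least 1 in A/J, C57BL/6J, 129S1/SvImJ, NOD/ShiLtJ, NZO/HlLtJ or WSB/EiJ (edgeR), and 0 had that difference with an unadjusted p below 0.05. Of all genes, 3.58% were called in A/J, 3.85% in C57BL/6J, 3.64% in 129S1/SvImJ, 3.91% in NOD/ShiLtJ, 3.65% in NZO/HlLtJ and 4.95% in WSB/EiJ. DESeq2 also called 0 in these strains, except for 1 in WSB/EiJ, Stx11. The largest differences were those of Stx11 in WSB/EiJ (-0.97), Stxbp2 in NOD/ShiLtJ (0.90) and Sv2c in NZO/HlLtJ (0.85).

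With no fold minimum the balance of directions varied between strains, and these balances were not tested against each other. PWK/PhJ was higher in 25 release genes and lower in 10, where 28.9% and 28.8% of all genes were higher and lower. The 25 included core genes: Cplx2, Syt1, Syn1, Syn2, Vamp2, Unc13a and Sv2b, of which Syn1 and Vamp2 did not pass the F test over all strains. The release genes took 1.51% ± 0.0343 of all counts in PWK/PhJ (SD, n = 8), against means of 1.39% to 1.45% in the other strains. The 8 general neuron markers, none at 0, summed to 5863 to 6580 CPM in PWK/PhJ, with a median of 6277 CPM. Libraries of the other strains overlapped with these, at 4858 to 6515 CPM, with medians of 5300 to 6070 CPM. The part of these markers in the PWK/PhJ levels was not tested.

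CAST/EiJ was higher in 10 release genes and lower in 21 (28.3% and 28.5% of all genes), and WSB/EiJ was likewise higher in 10 and lower in 21 (22.3% and 20.0%). In CAST/EiJ the neuron markers summed to 4858 to 5627 CPM, with the lowest median of the 8 strains (5300 CPM), and their part was not tested. The 21 in CAST/EiJ held Cplx3, Stxbp2 and Stxbp4, and the 10 held Syt5, Syt12 and Sv2b. Of the 9 intracellular syntaxins tested, Stx12, Stx16, Stx6 and Stx5a were lower in CAST/EiJ, Stx18 was higher, and Stx7, Stx8, Stx11 and Stx17 passed in neither direction. Syt5 averaged 167 ± 8.16 CPM in CAST/EiJ and 129.6 ± 13.7 CPM in the other 7 strains (0.37 ± 0.0385, adjusted p = 2.63e-12). In WSB/EiJ the lower genes included 3 of 4 RIM genes, Rims1, Rims2 and Rims3, beside Unc13c, Syn2 and Syn3.

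A/J was higher in 13 and lower in 10 (19.1% and 14.7% of all genes), C57BL/6J in 16 and 12 (20.4% and 17.6%) and 129S1/SvImJ in 10 and 14 (17.6% and 14.7%). NOD/ShiLtJ was higher in 14 and lower in 7 (21.4% and 18.2%), and NZO/HlLtJ in 17 and 15 (21.8% and 16.2%). Rab3 genes moved apart in several strains and together in others. Rab3b, Rab3c and Rab3d were all lower in NOD/ShiLtJ, and Rab3b and Rab3d were lower in A/J. In C57BL/6J, Rab3b and Rab3c were higher and Rab3d was lower. Rab3c averaged 536 ± 48.7 CPM in C57BL/6J, against 414 ± 67.3 CPM in the other 7 strains (0.38 ± 0.0491, adjusted p = 3.63e-09). In NZO/HlLtJ it averaged 327 ± 29.2 CPM, against 444 ± 69.9 CPM (-0.43 ± 0.0528, adjusted p = 1.46e-09), while Rab3b was high there. Rab3d averaged 24.5 ± 2.04 CPM in PWK/PhJ, against 18.3 ± 2.69 CPM (0.43 ± 0.0436, adjusted p = 9.47e-13). Stxbp6 (amisyn), which competes for SNARE partners, averaged 125 ± 6.36 CPM in C57BL/6J, against 95.9 ± 12.1 CPM (0.39 ± 0.0399, adjusted p = 5.85e-12).

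By role, the called genes were 1 of 3 complexins tested, 2 of 7 syntaxin-binding genes, 2 of 4 Munc13 genes, 1 of 4 Rab3 genes, 1 of 3 SV2 genes and 1 of 16 synaptotagmins. None of the 5 plasma membrane syntaxins, 9 intracellular syntaxins, 6 VAMPs, 3 synapsins or 4 RIM genes tested was called by edgeR. Of all genes 27.6% were called. The roles were not matched for level, and ranges were narrower at high levels, so differences between roles cannot be told from differences in level. Median ranges by role ran between 0.26 in the intracellular syntaxins and 0.81 in the Munc13 genes, and 39 of the 64 genes had a range below 0.5, against 8042 of all 17382. At 100 CPM or more these counts were 20 of 23 release genes and 1920 of 2276 genes.

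No sex difference passed the test in these genes. No release gene passed for female against male over all strains (edgeR, adjusted p below 0.05, no fold minimum), against 0.167% of all genes, and 5 of 64 had an unadjusted p below 0.05, against 5.30% of all genes. The lowest p was that of Syt2, a fast calcium sensor of the Syt1 type, with 32.8 ± 7.45 CPM in females and 29.9 ± 6.17 CPM in males (SD, n = 32 each; log2 difference 0.13 ± 0.0463, adjusted p = 0.515, edgeR), and the female mean was higher in 6 of 8 strains. Syt15 averaged 1.07 ± 0.394 CPM in females and 1.28 ± 0.456 CPM in males (-0.24 ± 0.0872, adjusted p = 0.539). No release gene passed the test of an interaction of strain and sex (0.0460% of all genes did). An unadjusted p below 0.05 was found in 6 of 64, against 10.7% of all genes. DESeq2 called 0 in both tests.

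In the 4 libraries that stand apart, most release genes with long transcripts were low and most with short ones high. Of the 27 release genes with at least 5506 bases of exon, 20 to 24 were below the mean of the other 3 libraries of their group. Of the 10 with at most 2998 bases, 1 or 2 were. Over all genes with such lengths the median deviation was -0.25 to -0.13 for the long and 0.19 to 0.30 for the short. In NOD/ShiLtJ female 1, the fifth library by deviation, these were -0.00048 and -0.023. CAST/EiJ female 4, the eighth, had the same signs as the 4, at -0.10 and 0.14.

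Stxbp5l (tomosyn-2), which inhibits SNARE assembly, deviated most. It had 10.98 CPM in 129S1/SvImJ female 1, 11.7 in A/J male 2, 18.2 in WSB/EiJ female 1 and 19.8 in C57BL/6J male 4, against 33.3 to 86.6 CPM in the other 60 libraries. All 4 lay below every other library. Its F test among strains passed without a fold minimum (adjusted p = 0.0442, range 0.77, edgeR) but not when any 1 of 22 libraries was left out. PWK/PhJ was highest, with 73.9 ± 13.04 CPM, against 49.8 ± 13.1 CPM in the other 7 strains (0.58 ± 0.164, adjusted p = 0.00221). Without the 4 libraries its F test had an adjusted p of 0.000462 and a range of 0.63, and the PWK/PhJ difference was 0.50. Syt10, a synaptotagmin and the shortest release gene tested (1845 bases of exon), was low as well, with 1.52, 2.68, 2.52 and 2.33 CPM in the same order, against 3.50 to 8.52 CPM in the other 60. Syn3 was also below the other libraries of its group in all 4 (2.91, 3.22, 3.14 and 5.42 CPM in the order above). Without the 4 libraries, Stx1a, Syn1, Vamp2 and Stx8 passed the F test with no fold minimum (edgeR, adjusted p = 0.0285, 0.0314, 0.0186 and 0.00226), which they do not with all 64. Stx11 moved the other way, from an adjusted p of 0.0518 to 0.11 in that test. The 4 were chosen for their distance from their own groups, so leaving them out narrows the spread within groups by design. Of all genes, 28.1% were called with a range of at least 1 without them, against 27.6% with all 64.

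**Figure D5:**
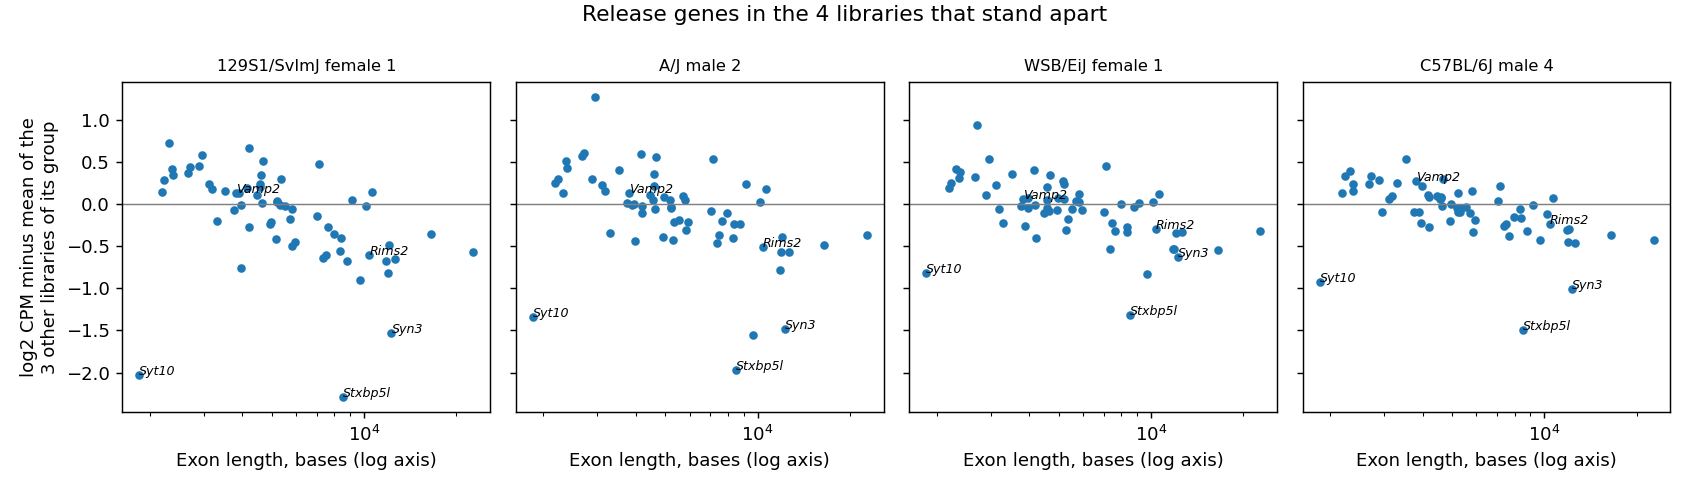
Log2 CPM of release genes tested minus the mean of the other 3 libraries of its strain and sex (vertical axis) against exon length in bases (log axis), in the 4 libraries that stand apart. Most long genes lie below 0 and most short genes above it in each panel, and Stxbp5l is among the lowest points.

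Other genes of the pathway, in 7 lists of 78 genes of which 77 were tested, were read beside these. None of the 8 tested genes of the SNAP-25 family and SNARE disassembly was called among strains with a range of at least 1 (largest range 0.38, Nsf), nor any of 12 active zone scaffolds (0.60, Cask), 8 Rab3 regulators (0.87, Rab3il1) or 15 endocytosis genes (0.67, Dnm3), by edgeR. With no fold minimum 7, 12, 8 and 13 of them passed, where 89.2% of all genes did, and 27.6% of all genes were called with a range of at least 1. Of 12 vesicle membrane genes 1 was called, Synpr (synaptoporin, a protein of mossy fibre vesicles), with 159 ± 10.9 CPM in A/J, the highest strain, and 78.7 ± 7.61 CPM in CAST/EiJ, the lowest.

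Of 6 vesicular transmitter transporters 2 were called. Slc17a8, the glutamate transporter VGLUT3, averaged 8.48 ± 1.44 CPM in PWK/PhJ and 8.48 ± 0.8293 CPM in 129S1/SvImJ, against 1.91 ± 0.691 CPM in A/J. Slc18a3, the acetylcholine transporter, averaged below 0.46 CPM in every strain (adjusted p = 0.0471). Of 16 other genes with C2 domains 8 were called: Doc2b, Doc2g, Rph3al, Sytl1, Sytl4, Esyt3, Otof and Baiap3. Doc2b, a calcium sensor of spontaneous release, averaged 197 ± 22.8 CPM in CAST/EiJ and 92.2 ± 3.84 CPM in NZO/HlLtJ. Baiap3, a Munc13-like protein of dense-core vesicles, averaged 30.8 ± 7.10 CPM in NZO/HlLtJ and 8.44 ± 4.66 CPM in C57BL/6J. The other 6 had strain means of at most 6.42 CPM.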

How the data were processed

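Hippocampus RNA was extracted with a TRIzol kit and DNase and made into Illumina TruSeq libraries, per the labels' protocols. The authors deposited whole-number read counts per gene, not normalized, in 1 table of 64 libraries. The build is GRCm39, per the submitters' processing notes. Aligner, counting tool and use of strand are not given in the sources used here, nor is it given whether reads of every strain were aligned to the C57BL/6J genome; sequence differences from a shared reference can lower counts, most in CAST/EiJ and PWK/PhJ, and this was not tested. Gene symbols and exon lengths came from GENCODE M21 by Ensembl ID, which matched 32146 of 32227 genes.

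Counts were tested with edgeR 4.0.16 (R 4.3.3, limma 3.58.1): filterByExpr with a minimum count of 10 and a minimum total of 15, TMM scaling, 16 strain-by-sex means with 48 residual degrees of freedom, a robust quasi-likelihood fit and Benjamini-Hochberg adjustment over 17382 genes. Replicate numbers were given in accession order and only name a library. SE is the absolute log2 difference over the square root of F. Strains were called at adjusted p below 0.05 with a log2 difference or range of at least 1, and sex and interaction at adjusted p below 0.05. Values in all strains are given for members called among strains or in a strain, and for the most abundant member of each role (3 for the synaptotagmins); pathway genes are named where called. Other members named with values were chosen after their values were seen. Values of 2 members that enter the counts are not reported here. Alternatives were DESeq2 1.42.0, other scaling, filters, models, covariates and fold minimums, and leaving out libraries. Runs that left out 1 library kept the genes tested and the dispersion of the full fit. The procedure was checked on simulated counts. The members and lists were chosen with earlier results of these data known. CPM below about 1 rests on few counts, so precision there is low.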

Additional observations from a re-analysis of the deposited data

Results flagged for a closer look

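In the 8 genes called among strains, each of the 16 groups of 4 libraries was searched for a library far from the others by Dixon's ratio at its 95% critical value, and 8 of 128 groups held one. Chance gives about 1 in 20 groups. Rab3b was high in C57BL/6J male 4, at 57.6 CPM with the nearest library at 40.8 CPM, and in WSB/EiJ female 1, at 42.3 CPM with the nearest at 33.9 CPM. Both are among the 4 libraries that stand apart. Stxbp4 was low in CAST/EiJ female 1, at 9.88 CPM with the nearest at 12.5 CPM, and Cplx3 was low in NZO/HlLtJ male 4, at 3.25 CPM with the nearest at 6.45 CPM. Sv2c was high in WSB/EiJ male 2, at 31.9 CPM with the nearest at 20.1 CPM. Unc13d was high in CAST/EiJ male 2, at 3.89 CPM with the nearest at 3.21 CPM, and in CAST/EiJ female 4, at 4.09 CPM with the nearest at 2.65 CPM. Unc13c was high in C57BL/6J male 3, at 34.6 CPM with the nearest at 20.96 CPM.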

How the results depend on the processing

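Of strain differences from the other 7 that passed with at least 0.5 on the log2 scale, none reversed direction under any alternative run. A range among strains has no sign and could not reverse, and the directions of sex differences were not compared. The number of release genes called among strains was 8, and it was 10 with DESeq2 (Stx11 and Syt6 added), 11 with no count filter, 7 with a mean of at least 50 counts, 9 with an additive model, and 7 to 10 when 1 library was left out. The share called was 15.6% of release genes and 27.6% of all genes with DESeq2, and 16.2% and 26.8% with no count filter. It was 11.5% and 13% with a mean of at least 50 counts, and 14.1% and 27.5% with an additive model. The number of release genes was 59 with no fold minimum, where 89.2% of all genes passed, and 21 with a 1.5-fold minimum. Against the other 7 strains, no fold minimum gave 23 in A/J, 28 in C57BL/6J, 24 in 129S1/SvImJ, 21 in NOD/ShiLtJ, 32 in NZO/HlLtJ, 31 in CAST/EiJ, 35 in PWK/PhJ and 31 in WSB/EiJ. The shares of all genes with no fold minimum are given by direction above. A 1.5-fold minimum gave 2 in A/J, 2 in C57BL/6J, 2 in 129S1/SvImJ, 1 in NOD/ShiLtJ, 4 in NZO/HlLtJ, 4 in CAST/EiJ, 8 in PWK/PhJ and 3 in WSB/EiJ. No share of all genes was taken at a 1.5-fold minimum, so its counts cannot be read as particular to the release genes. With no count filter there was 1 in A/J (Vamp9), 3 in CAST/EiJ (Cplx3, Syt8 and Vamp9) and 1 in WSB/EiJ (Cplx4), where these added genes have few counts. WSB/EiJ also had 1 with DESeq2 (Stx11), with an additive model and with the choroid plexus covariate. Leaving out 1 library gave 2 to 3 in PWK/PhJ and 0 to 1 in WSB/EiJ. Leaving out the 4 libraries that stand apart, chosen after seeing the data, gave 8 among strains, 1 in CAST/EiJ and 2 in PWK/PhJ, without Cplx3. No paired analysis was possible because replicate numbers were given in accession order only and pair no libraries.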
